A study of Mus musculus with 65 samples.

Results

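The 8 tumours described here had the highest joint level of Esr1 and Pgr among 48 p53-null mouse mammary tumours. Esr1 encodes estrogen receptor alpha and Pgr encodes the progesterone receptor. The score of a tumour was the mean of its Esr1 and Pgr log2 levels, each read from its probe set of highest average level in tumours, and the 8 tumours with the highest score were set against the other 40. The members were thus chosen by measured Esr1 and Pgr, so the levels of these 2 genes are given as a description without a test, and both genes were left out of the comparison across genes.

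The tumours were profiled on Affymetrix arrays, together with 17 whole mammary glands. Every tumour grew from p53null BALB/c mammary fragments placed orthotopically in the inguinal fat pads of BALB/c female hosts whose own epithelium had been removed at 3 weeks of age. The hosts were TGFb1 heterozygous and irradiated (10 tumours), TGFb1 heterozygous and sham-irradiated (6), wild type and irradiated (23) or wild type and sham-irradiated (9), with treatment 3 days before transplantation. The loss of p53 is thus shared by all tumours, and the Tgfb1 genotype is that of the host, so it applies to host cells in the tumour and not to the transplanted epithelium. The labels used here do not state the dose to the hosts, the age at tumour collection or the number of fragment donors. In 1 tumour, placed by its title among those of irradiated wild-type hosts, other labels name a sham-irradiated host.

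Estrogen receptor alpha is a nuclear receptor that acts as a transcription factor when it binds estrogen, and Pgr is one of its classic targets in mammary epithelium. In the mammary gland both receptors mark the hormone-sensing luminal cells, which answer systemic hormones by secreting growth factors that act on neighbouring cells. FOXA1 opens chromatin for estrogen receptor alpha, and FOXA1 and GATA3 are part of the same luminal programme in human breast tumours.

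The members are lettered A to H in order of falling score. Tumours A, C, D and F came from irradiated heterozygous hosts (numbers 14, 9, 10 and 13 in the labels) and tumours B and E from sham heterozygous hosts (numbers 5 and 2). Tumour G came from a sham wild-type host (number 3) and tumour H from an irradiated wild-type host (number 23). Esr1 ranged from 6.40 to 10.60 with a median of 8.58 in the 8 tumours, against 4.65 to 9.21 with a median of 6.93 in the other 40. Pgr ranged from 4.14 to 12.37 with a median of 8.18 in the 8 tumours, against 3.66 to 7.62 with a median of 4.73 in the other 40. Within the 8, Pgr spanned more than Esr1.

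The label of high Esr1 and high Pgr held for both genes in 5 of the 8 tumours. Tumours A to E ranked within the first 12 of 48 for each gene. This was not particular to them, since the tumour ranked 10 by score, among the other 40, was 9th for Esr1 and 10th for Pgr. Tumour A led both rankings, with Esr1 at 10.60 and Pgr at 12.37. Tumour F was 4th for Esr1 at 8.95 and 14th for Pgr at 5.88. Tumour G was 4th for Pgr at 8.35 but 38th for Esr1 at 6.40, and tumour H was 2nd for Esr1 at 10.40 but 40th for Pgr at 4.14. Tumours G and H therefore entered through 1 gene each. The scores of G and H were 7.37 and 7.27, and the tumours just outside, ranked 9 and 10, had scores of 7.18 and 7.09. The scores of A, B and C were 11.49, 9.44 and 8.71, so these tumours lay farther apart than the tumours on either side of the border.

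**Figure D1:**
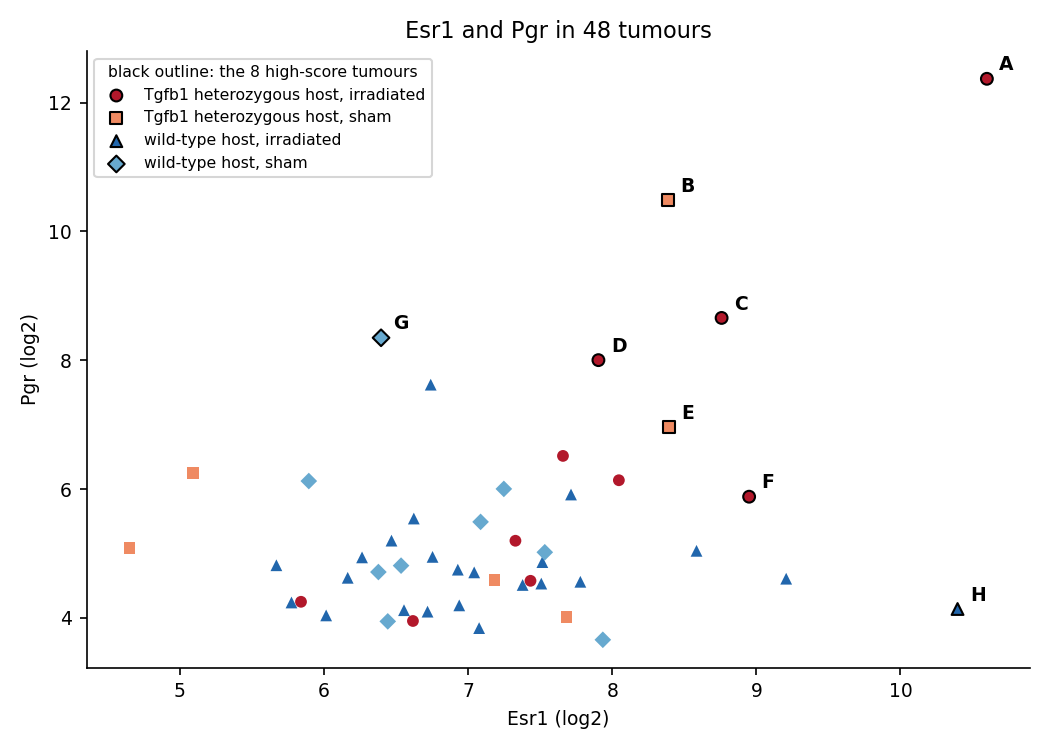
Esr1 (horizontal axis, log2) and Pgr (vertical axis, log2) in each of the 48 tumours, coloured by host group, with the 8 high-score tumours outlined and lettered. Tumours A to E lie high on both axes, while tumour G is high only in Pgr and tumour H only in Esr1.

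The other probe sets of these genes were dimmer and did not all follow. For Esr1, the other probe sets averaged 6.40 and 3.38 in the 8 tumours, against 4.80 and 3.44 in the other 40. For Pgr, the other probe sets averaged 4.49 and 3.76 in the 8 tumours, against 3.65 and 3.19 in the other 40. Across all 48 tumours Esr1 and Pgr had a Pearson correlation of 0.395 (permutation p = 0.00685) and a Spearman correlation of 0.215 (permutation p = 0.143). Without the 2 tumours farthest from the Esr1 median, which were A and H, Pearson's r was 0.286 (permutation p = 0.0523), and without tumour A alone it was 0.201 (permutation p = 0.176). The correlation over all tumours thus rested largely on tumour A. Within heterozygous hosts r was 0.664 and rho 0.65 (n = 16, permutation p = 0.00582 and 0.00814), and within wild-type hosts r was -0.163 and rho -0.08 (n = 32, permutation p = 0.356 and 0.663). Whether the hosts differ in this correlation was not tested. Adjusted over the 6 versions computed, Pearson's p was 0.0138 for all tumours, 0.0138 for heterozygous hosts and 0.356 for wild-type hosts.

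Promoter sequences are shown for 4 genes because they carry letters that the receptors or their partner FOXA1 are known to read. They are Pgr itself, and Foxa1, Cxcl15 and Fam25c, which were higher in the 8 tumours. Each sequence runs from 250 bases before to 50 bases after a RefSeq gene start in build GRCm38.p6, 5′ to 3′ on the strand of the gene. The windows are Pgr at chr9:8899583-8899882, plus strand, Foxa1 at chr12:57546062-57546361, minus strand, Cxcl15 at chr5:90794284-90794583, plus strand and Fam25c at chr14:34355344-34355643, minus strand. Capitals mark the forkhead letters TGTTTAC or TATTTAC in Pgr, Foxa1 and Cxcl15, and the letters AGGTCA in Fam25c, each on either strand.
Pgr: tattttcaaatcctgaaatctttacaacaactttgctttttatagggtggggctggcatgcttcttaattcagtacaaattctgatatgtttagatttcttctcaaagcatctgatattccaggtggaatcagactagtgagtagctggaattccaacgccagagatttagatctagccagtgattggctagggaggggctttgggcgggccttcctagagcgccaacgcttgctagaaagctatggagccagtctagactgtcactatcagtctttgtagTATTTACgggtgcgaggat
Foxa1: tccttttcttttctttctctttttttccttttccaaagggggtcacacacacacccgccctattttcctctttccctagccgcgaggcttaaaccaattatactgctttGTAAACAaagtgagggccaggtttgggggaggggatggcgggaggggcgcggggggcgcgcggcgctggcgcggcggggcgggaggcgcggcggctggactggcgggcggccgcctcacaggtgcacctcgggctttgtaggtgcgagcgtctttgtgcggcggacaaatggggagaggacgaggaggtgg
Cxcl15: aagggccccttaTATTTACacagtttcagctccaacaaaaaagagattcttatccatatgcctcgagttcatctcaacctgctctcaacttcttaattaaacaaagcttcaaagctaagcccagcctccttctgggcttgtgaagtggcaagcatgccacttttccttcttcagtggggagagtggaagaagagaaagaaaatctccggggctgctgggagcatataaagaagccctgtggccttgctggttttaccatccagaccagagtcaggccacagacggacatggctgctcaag
Fam25c: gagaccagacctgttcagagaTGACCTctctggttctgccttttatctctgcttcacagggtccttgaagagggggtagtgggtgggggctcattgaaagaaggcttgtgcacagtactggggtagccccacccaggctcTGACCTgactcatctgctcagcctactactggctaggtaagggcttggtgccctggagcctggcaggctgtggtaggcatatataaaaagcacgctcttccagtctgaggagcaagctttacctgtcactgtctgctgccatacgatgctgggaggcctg

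Of the 23 genes described next, 18 had at least 1 such window, with 26 windows in all. The forkhead letters were found in windows of 4 genes (Cxcl15, Foxa1, Il33 and Lpin2), which made 4 of 26 windows, against 6.54% of 32851 windows over all genes. AGGTCA, 1 arm of the estrogen response element, was found in windows of 3 genes (Cited1, Fam25c and Smco4), which made 3 of 26 windows, against 16.3% of all windows. The full palindrome GGTCANNNTGACC, which contains that arm without its leading A, was in 0 of the 26 windows and 0.07% of all, and the progesterone-type palindrome GNACANNNTGTNC was in 0 of 26 and 0.475% of all. No match says only that these letters are not in this window.

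In the comparison of the 8 tumours with the other 40, 23 of 12784 genes were higher at an adjusted p under 0.05 and 0 were lower (limma, Benjamini-Hochberg adjustment over all genes tested). The 23 genes make 0.18% of those tested. At an unadjusted p under 0.05, 684 genes (5.35%) were higher and 606 (4.74%) were lower. The 23 genes include the forkhead factor gene Foxa1, the coregulator gene Cited1, the T-box factor gene Tbx3 and the hormone gene Stc2, all from the hormone-sensing luminal list. They also include secreted proteins, membrane proteins and transporters, described below. Differences ranged from 0.52 to 2.85 log2 units, and 12 of the 23 exceeded 2 log2 units. The filter on level kept genes whose mean over all 48 tumours was at least 5.14. In 4 of the 23, Tlcd4, Pwwp3b, Itih2 and Cited1, the mean of the other 40 was under that level, so they were tested only through the 8 tumours in which they are high. Their log2 differences are part of the range and count just given, but are not turned into folds. Without the filter all 23 passed, at adjusted p-values of up to 0.0392 (limma). For the other 19 genes the differences corresponded to 1.43-fold to 6.84-fold. In each of the 23 genes the ranges of the groups overlapped, so no gene set all 8 tumours apart. Each of the 23 also varied more in the 8 tumours than in the other 40. The SDs were 2.79 and 0.798 for Cxcl15, 2.31 and 0.629 for Fam25c, and 1.53 and 1.14 for Il33. The fit used a common spread for both groups. With the wider spread in the smaller group, this can make SEs and p-values too small. A fit with separate spreads was not run, so the SEs, the p-values and the count of 23 rest on equal spread.

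The 8 tumours did not share these genes evenly. Tumour A lay above all 40 other tumours in 21 of the 23 genes, tumour B in 16, tumour C in 9, tumour E in 7, tumour F in 5, and tumours D, G and H in 4 each. Tumour A was the highest of the 8 in 18 genes. All 8 tumours were above the median of the other 40 in 10 genes, 7 of 8 in 11 genes and 6 of 8 in 2 genes. Leaving out tumour B left 7 of the 23 passing, leaving out A left 9 (11 genes passed in all) and leaving out E left 13, and without both A and B only Gipc2 and Rbm20 passed. The genes that passed whichever 1 of the 8 was left out were Cxcl15, Fam25c, Gipc2, Itih2, Pwwp3b, Rbm20 and Tlcd4.

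**Figure D2:**
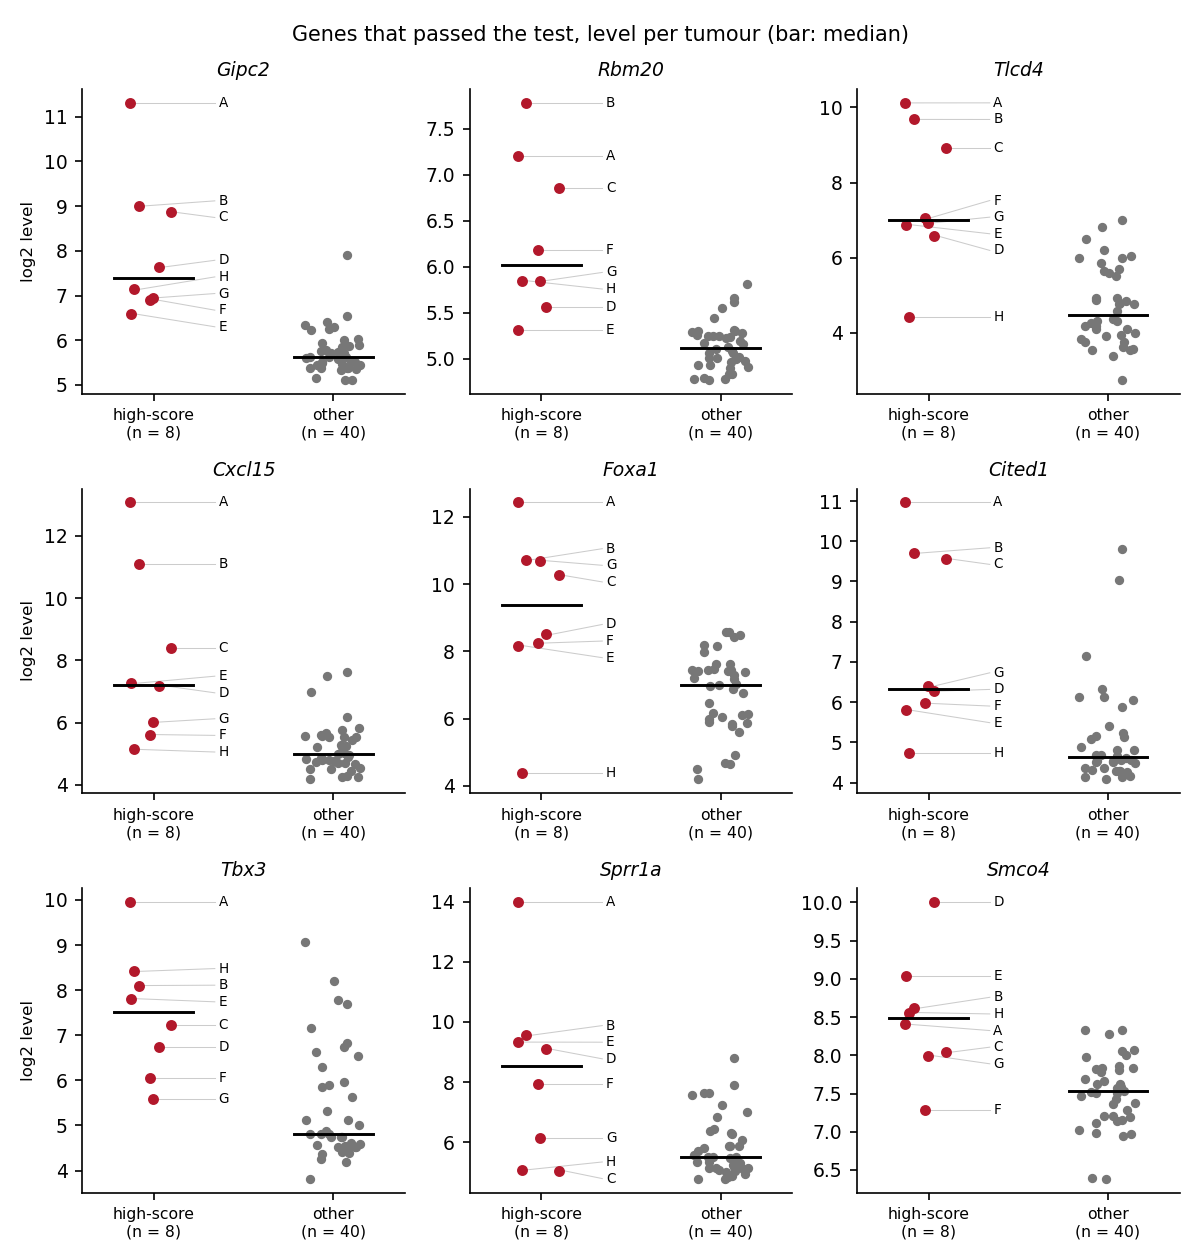
Log2 level (vertical axes, scaled to each gene) of 9 of the 23 genes in the 8 high-score tumours, lettered, and the other 40 tumours, with a bar at each group's median. Tumour A is highest in 7 of these panels, tumour B in Rbm20 and tumour D in Smco4.

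Gipc2, which encodes a PDZ-domain adaptor protein, followed the score most closely. It ranged from 6.59 to 11.31 with a median of 7.39 in the 8 tumours, against 5.11 to 7.90 with a median of 5.63 in the other 40. All 8 tumours were above the median of the others, and A, B and C above every one of them. The difference was 2.30 ± 0.29 log2 units (SE, adjusted p = 4.62e-06), and the adjusted p was 0.000216 without A and B, where the difference was 1.60. Over the 48 tumours its level had a correlation of 0.931 with the score, the highest of all genes tested, given as a description since A to H spread that axis.

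Rbm20, whose product regulates splicing of titin and other muscle transcripts in heart, was the gene in which most members stood clear. It ranged from 5.32 to 7.78 with a median of 6.02 in the 8 tumours, against 4.77 to 5.81 with a median of 5.12 in the other 40. Tumours A, B, C, F, G and H were above all 40 others, while D and E were within their range. G and H were above them only narrowly, at 5.850 and 5.849 against a highest value of 5.811. The mean of the other 40 was 5.13696, just over the filter level of 5.13678, so Rbm20 was dim in those tumours. The difference was 1.19 ± 0.16 (SE, adjusted p = 5.7e-06), and 0.80 without A and B (adjusted p = 0.00119). Skeletal muscle genes, described below, were high in C and H, where Rbm20 was at 6.85 and 5.85, and low in A and B, where it was highest. Without C and H its difference was 1.18 (limma, adjusted p = 0.000128).

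Of the 16 genes listed as hormone-sensing luminal, 11 were tested, 4 passed and were higher, and 0 passed and were lower. Over all genes tested 0.18% passed and were higher. The list was chosen with earlier results of these data known, so its count is no separate support. The difference was positive in 8 of the 11, with a median of 0.51, while over all genes tested 48.1% were positive with a median of -0.01. Without the filter 13 genes of the list were measured, 10 were positive with a median of 0.46, and 4 passed. Foxa1 ranged from 4.38 to 12.43 with a median of 9.38 in the 8 tumours, against 4.19 to 8.58 with a median of 7.02 in the other 40. Tumours A, B, C and G were above all others, and H was near the bottom of their range. The difference was 2.40 ± 0.55 (SE, adjusted p = 0.0457), and the adjusted p was 0.283 without tumour A. Cited1, whose product is a transcriptional coregulator that binds estrogen receptor alpha, ranged from 4.73 to 10.97 with a median of 6.34 in the 8, against 4.08 to 9.81 with a median of 4.65 in the other 40. Only tumour A exceeded the highest of the others, and the difference was 2.34 ± 0.54 (SE, adjusted p = 0.0479; 0.315 without A and 0.0388 without the filter). Cited1 reached the filter on level only through the 8 tumours.

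Tbx3, a T-box transcription factor gene needed for early mammary gland development, ranged from 5.58 to 9.96 with a median of 7.52 in the 8 tumours, against 3.81 to 9.07 with a median of 4.81 in the other 40. Tumour H, low in Foxa1 and Cited1, was second of the 8 for Tbx3 at 8.42. The difference was 2.07 ± 0.48 (SE, adjusted p = 0.0479; 0.306 without A). Stc2, which encodes the secreted glycoprotein stanniocalcin 2 and is estrogen-induced in human breast cancer cells, ranged from 6.61 to 12.07 with a median of 8.23 in the 8, against 5.55 to 8.48 with a median of 6.83 in the other 40. Tumours A to D were above all others while G and H were below the others' median. The difference was 1.80 ± 0.36 (SE, adjusted p = 0.0119; 0.115 without B).

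Other genes of the hormone response did not pass. Wnt4, a Wnt ligand gene induced by progesterone in mouse mammary gland, ranged from 6.20 to 11.06 with a median of 8.91 in the 8 tumours, against 6.06 to 9.64 with a median of 7.46 in the other 40. Its difference was 1.28 ± 0.41 (SE, adjusted p = 0.284). When only tumours A to E were set against the same 40, a comparison chosen after seeing the data, Wnt4 was higher by 2.36 (limma, adjusted p = 0.00139). The tumours left out, F, G and H, were the lowest of the 8 for Wnt4, at 6.93, 7.69 and 6.20. This p-value is thus a description and no separate support. Greb1, an estrogen-induced gene in human breast cancer cells, differed by 0.26 ± 0.49 (SE, adjusted p = 0.88), with 5.71 as the median of the 8 and 5.01 as the median of the other 40. Gata3, the luminal GATA factor gene, differed by -0.22 ± 0.40 (SE, adjusted p = 0.877), with medians of 9.75 in the 8 and 9.47 in the other 40. Xbp1, of the same hormone-sensing luminal list, was lower by -0.35 ± 0.17 (SE, limma unadjusted p = 0.0427, adjusted p = 0.478). Prom1 differed by -0.65 ± 0.75 (SE, adjusted p = 0.787), while 8 of the 11 tested genes of that list had a positive difference. Tnfsf11, which encodes RANK ligand, a progesterone-induced signal, was dim and set aside by the filter on level. Its median was 4.51 in the 8 tumours and 4.25 in the other 40. Esr2, the gene of estrogen receptor beta, was also under the filter, with a median of 4.37 in the 8 and 4.36 in the other 40. Prlr and Areg were not analysed here.

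Of 18 genes of other nuclear receptors and their coregulators, 13 were tested and 0 passed in either direction. The difference was positive in 4 of the 13, with a median of -0.07. Erbb2, the gene of the HER2 receptor, differed by -0.13 ± 0.26 (SE, adjusted p = 0.885), and 0 of 8 tested genes of the ErbB family passed. Tgfb1 differed by -0.04 ± 0.25 (SE, adjusted p = 0.974), with medians of 8.60 in the 8 tumours and 8.68 in the other 40, and 0 of 16 genes of the TGF-beta pathway passed. Mki67, a marker of cycling cells, differed by 0.01 ± 0.17 (SE, adjusted p = 0.987). Of 22 cell cycle genes, 11 had a positive difference, the median was 0.00 and 0 passed.

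Several of the 23 genes encode secreted or cell-surface proteins. Tlcd4, a gene of the TLC-domain membrane protein family, had a difference of 2.85 ± 0.46 (SE, adjusted p = 0.000397), which was 1.45 when its probe sets were averaged (adjusted p = 0.00021). It ranged from 4.42 to 10.12 with a median of 6.99 in the 8 tumours, against 2.75 to 7.01 with a median of 4.47 in the other 40, and H was the only member below the others' median. Cxcl15, a mouse chemokine gene whose product attracts neutrophils, ranged from 5.14 to 13.08 with a median of 7.22 in the 8, against 4.17 to 7.64 with a median of 4.97 in the other 40. Tumours A and B, at 13.08 and 11.08, and C at 8.39, were above all others. The difference was 2.77 ± 0.50 (SE, adjusted p = 0.0018). Itih2, a gene for a heavy chain of the inter-alpha-trypsin inhibitor family that binds hyaluronan, differed by 2.61 ± 0.45 (SE, adjusted p = 0.0013), with medians of 7.12 in the 8 tumours and 4.75 in the other 40. As given above, Tlcd4 and Itih2 reached the filter on level only through the 8 tumours. Without the filter their adjusted p-values were 0.000421 and 0.00116 (limma).

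Agtr1a, the gene of an angiotensin II receptor, was at 12.86 in tumour A and 10.10 in tumour C, and its median was 7.57 in the 8 tumours and 5.92 in the other 40. Its difference was 2.19 ± 0.49 (SE, limma adjusted p = 0.0457; 0.306 without A). Il33, the gene of an alarmin cytokine of the interleukin 1 family, had medians of 9.84 in the 8 and 7.98 in the other 40, and A and H were above all others. The difference of Il33 was 2.02 ± 0.46 (SE, limma adjusted p = 0.0457; 0.27 without A). Il33 had a higher correlation with Esr1 (0.744) than with Pgr (0.538), whereas Cxcl15 had 0.523 with Esr1 and 0.915 with Pgr, all given as descriptions over 48 tumours. Sprr1a, a precursor of the cornified envelope of squamous cells, was at 13.99 in tumour A, with medians of 8.52 in the 8 and 5.52 in the other 40. Its difference was 2.39 ± 0.56 (SE, adjusted p = 0.0479; 0.345 without A), and C and H were below the others' median.

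The remaining genes that passed were Pwwp3b (2.84), Fam25c (2.32), Vill (1.06), Smco4 (0.98), Atp2a3 (0.92), Fxyd4 (0.86), Cep295 (0.81), Rev3l (0.66), Lpin2 (0.63), Grik5 (0.63) and Hdac6 (0.52), each with its difference in log2 units. Pwwp3b reached the filter on level only through the 8 tumours, and its adjusted p without the filter was 0.00116 (limma). Atp2a3 encodes an endoplasmic reticulum calcium pump, Fxyd4 a regulator of the sodium pump, Rev3l the catalytic subunit of DNA polymerase zeta, Lpin2 a phosphatidate phosphatase, Grik5 a kainate receptor subunit and Hdac6 a cytoplasmic deacetylase of tubulin. Fxyd4 was raised mainly in A and E, at 8.58 and 7.52, against a highest value of 6.09 in the other 40. Their adjusted p-values from limma were 0.00126 for Pwwp3b, 0.0013 for Fam25c, 0.0167 for Smco4 and 0.036 for Hdac6, and between 0.0457 and 0.0479 for the other 7. The lowest correlations with the score were those of Ccdc86 (-0.59), Tank (-0.58), Mus81 (-0.56), Dpp3 (-0.55) and Cfl1 (-0.54), and none of these 5 passed in the comparison of the 8 tumours with the other 40.

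Smco4 and Cep295 lie next to each other on chromosome 9, on the same chromosome as Pgr, in the gene order of GRCm38.p6. Their neighbours were looked at after these values were seen, so what follows is a description. Of 21 measured genes from Ccdc82 to Slc36a4, the stretch that holds both, tumour D was at least 2 log2 units above the median of the other 40 tumours in 19, with a median of 2.40 over the stretch. Tumour B was at least 1 unit above it in 16 of the 21, with a median of 1.30, and tumour E had a median of 0.99. Tumours A and C, which had more Pgr than D, had medians of -0.20 and -0.17. Tumour D was above all 40 other tumours in 13 of the 21 genes. From Ccdc82 to Sesn3 the lowest-scoring tumour was higher than D. It was at 3.12 against 2.11 for Ccdc82 and at 3.30 against 2.39 for Sesn3, and its median over the stretch was 0.39. The raised level in D ended at Chordc1, the measured neighbour after Slc36a4, where D was at -0.13.

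On the other side of Pgr lie Yap1, which encodes a coactivator of the Hippo pathway, and Birc2, which encodes an inhibitor of apoptosis. Tumour H was 2.09 above the others' median for Yap1 and 2.60 for Birc2, tumour E 1.92 and 2.32, tumour B 1.26 and 1.28, and tumour D 0.96 and 1.20. The tumour with the lowest score of the 48, from a sham heterozygous host, was 2.55 above it for Yap1 and 2.97 for Birc2, but 0.35 for Pgr. High values of these neighbours were thus found in tumours with and without high Pgr. DNA copy number was not analysed here.

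**Figure D3:**
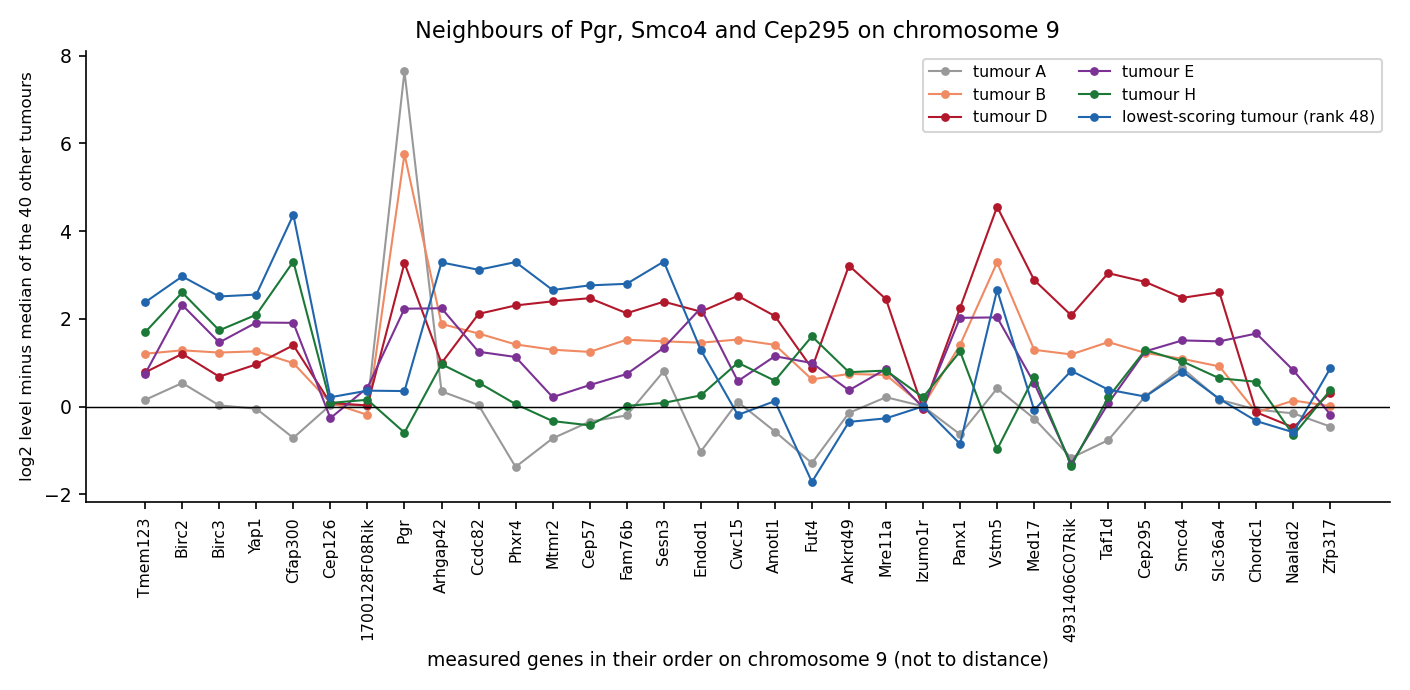
Log2 level minus the median of the 40 other tumours (vertical axis) for measured genes in their order along chromosome 9 (horizontal axis, not to distance), in tumours A, B, D, E and H and in the lowest-scoring tumour. Tumour D stays about 2 to 3 units up from Ccdc82 to Slc36a4 at most genes, and the lowest-scoring tumour is higher than D from Ccdc82 to Sesn3. Tumour A is 7.64 up at Pgr and 0.88 up at Smco4.

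Markers of other cell types were read beside these results, and their part in them was not tested except where a model or a left-out tumour is given. Luminal keratin and adhesion genes, which mark epithelial content, had 1 positive difference among 22 tested, a median of -0.52 and 0 passing. The mean of that list was 6.14 to 11.17 with a median of 10.92 in the 8 tumours, against 6.58 to 11.33 with a median of 10.82 in the other 40. Tumours A, B, C, D and G were at 10.88 to 11.17, while E, F and H were at 9.15, 8.42 and 6.14, and H was below all other tumours. A mean under 10 was found in 3 of the 8 tumours and 8 of the other 40. Krt8, a luminal keratin gene, was 7.79 in H and 11.57 to 13.82 in the other members.

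Basal and myoepithelial genes had 13 positive differences among 15 tested, a median of 0.52 and 0 passing. The list mean was 10.99 in tumour C, 10.55 in E and 9.42 in B, and 7.52 to 8.36 in the other members, against 7.06 to 10.83 with a median of 8.02 in the other 40. Krt5, a basal keratin gene, had medians of 7.53 in the 8 and 6.34 in the other 40 and a difference of 1.69 ± 0.58 (SE, adjusted p = 0.319). Krt14 differed by 0.46 ± 0.74 (SE, adjusted p = 0.855). Of 7 tested squamous genes, 6 had a positive difference and only Sprr1a passed, with E at a list mean of 9.75 and A at 9.00, against 5.40 to 8.52 in the other 40.

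Fibroblast and collagen genes had 16 positive differences of 16 tested, with a median of 0.32 and 0 passing. The list mean was 9.86 to 12.45 with a median of 10.61 in the 8 tumours, against 8.75 to 12.53 with a median of 10.10 in the other 40. Mesenchymal genes were positive in 13 of 14 (median 0.45) and endothelial genes in 11 of 11 (median 0.51), and 0 passed in either list. Vim, a mesenchymal filament gene, differed by 0.27 ± 0.33 (SE, adjusted p = 0.802). With the fibroblast list mean in the model 13 genes were higher, and with the luminal list mean in the model 28 were. In bulk tumour RNA, fewer cells of a type and less RNA per cell cannot be told apart.

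Skeletal muscle genes had a list mean of 11.41 in tumour H and 10.24 in tumour C, and 5.18 to 6.02 in the other members, against 5.04 to 10.86 with a median of 5.44 in the other 40. A mean over 8 was found in 2 of the 8 tumours and 5 of the other 40. Without C and H, 22 genes were higher, and 19 of those were among the 23. Foxa1 was then higher by 3.02 (limma, adjusted p = 0.00137). Il33, Tbx3, Lpin2 and Cited1 did not pass without them, at adjusted p-values of 0.339, 0.252, 0.069 and 0.0683. Of the 8 highest tumours by Esr1 alone 4 had such a muscle mean, and of the 8 highest by Pgr alone 2 had. Macrophage, interferon and hypoxia lists had 0 genes passing, with median differences of -0.04, 0.10 and -0.17.

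**Figure D4:**
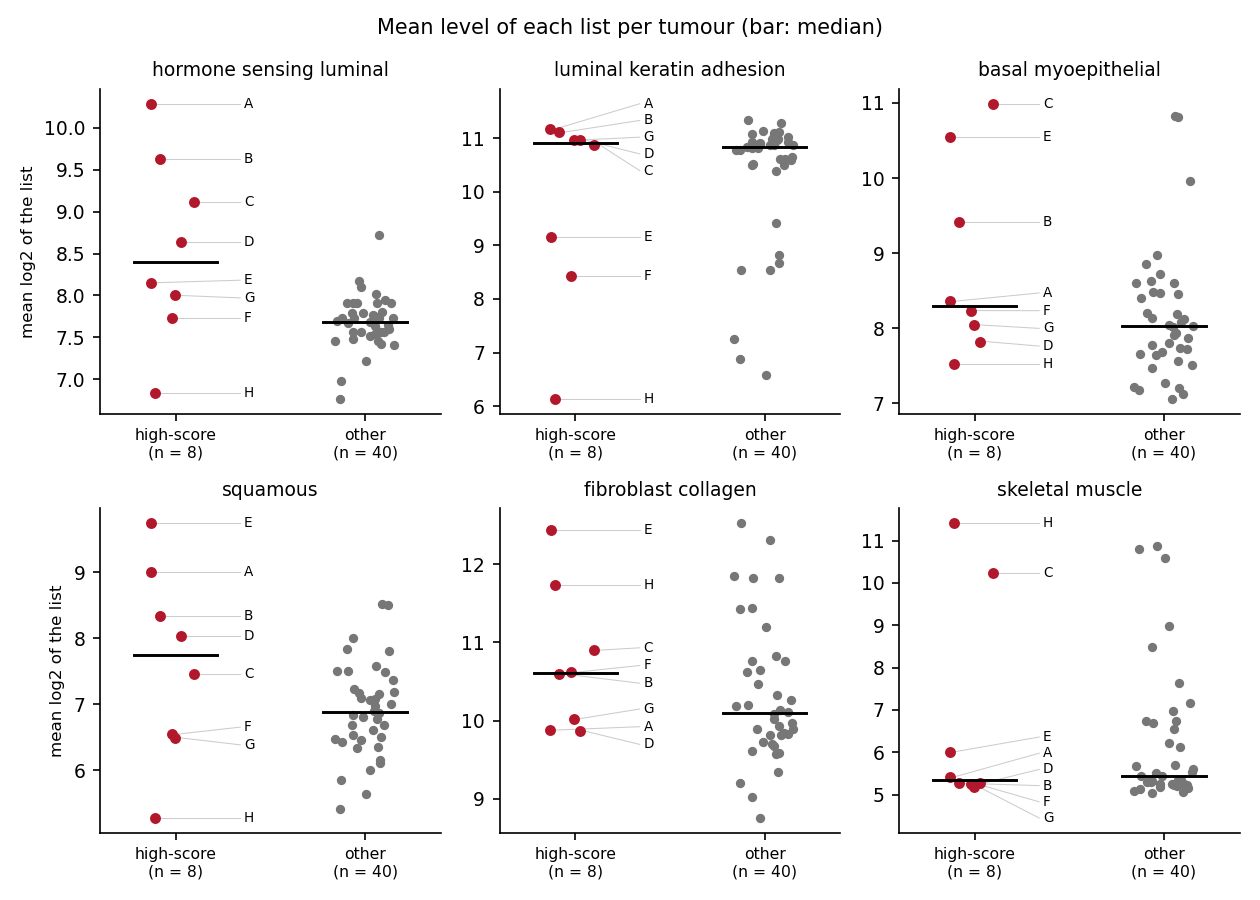
Mean log2 level of 6 gene lists (vertical axes, scaled to each list) in the 8 high-score tumours, lettered, and the other 40 tumours, with a bar at each group's median. Hormone-sensing genes are highest in A, B and C, luminal keratin and adhesion genes are lowest in H, and muscle genes are high in C and H.

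The members were spread unevenly over the hosts. Of tumours from heterozygous hosts 6 of 16 were members, against 2 of 32 from wild-type hosts (two-sided Fisher's exact test, p = 0.0115; 0.0346 adjusted over 6 host tests). By group, 4 of 10 came from irradiated heterozygous hosts, 2 of 6 from sham heterozygous hosts, 1 of 23 from irradiated wild-type hosts and 1 of 9 from sham wild-type hosts. Tumours of irradiated heterozygous hosts are numbered 9 to 18 in the labels, with no lower numbers, while the other groups start at 1. These shares thus hold for the tumours in the series. Of tumours from irradiated hosts 5 of 33 were members, against 3 of 15 from sham hosts, a difference that did not pass (Fisher's exact test, p = 0.692).

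The score itself ranged from 5.04 to 11.49 with a median of 7.09 in irradiated heterozygous hosts, from 4.87 to 9.44 with a median of 5.87 in sham heterozygous hosts, from 5.01 to 7.27 with a median of 5.85 in irradiated wild-type hosts and from 5.19 to 7.37 with a median of 6.01 in sham wild-type hosts. Heterozygous hosts held both the highest scores and the lowest one. Among irradiated hosts the mean score was 7.23 ± 1.88 in heterozygous (SD, n = 10) and 5.95 ± 0.66 in wild-type hosts (SD, n = 23), a difference of 1.28 (two-sided exact permutation test, p = 0.00417; 0.025 adjusted). Among sham hosts it was 6.56 ± 1.68 in heterozygous (SD, n = 6) and 6.09 ± 0.65 in wild-type hosts (SD, n = 9), a difference of 0.48 (exact permutation test, p = 0.486). Irradiated minus sham was 0.67 in heterozygous hosts (exact permutation test, p = 0.498) and -0.14 in wild-type hosts (exact permutation test, p = 0.598).

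**Figure D5:**
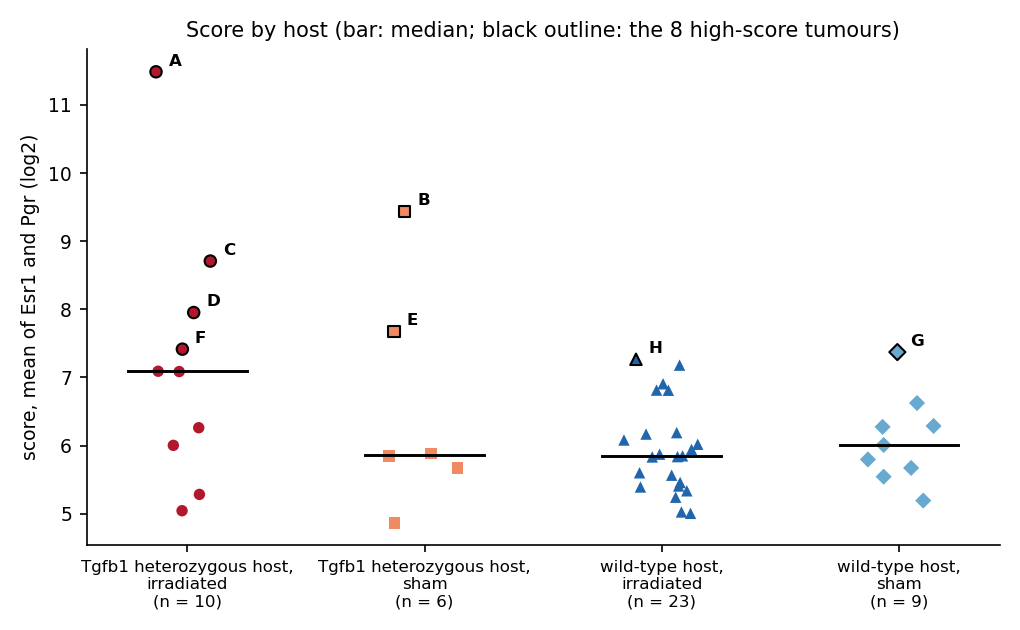
Score, the mean of Esr1 and Pgr (vertical axis, log2), of each tumour by host group (horizontal axis), with a bar at each group's median and the 8 high-score tumours outlined and lettered. Both heterozygous groups hold members above 7.6, while wild-type hosts hold G and H below 7.4.

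Taken singly, neither gene passed by host in the test across all genes. In unadjusted tests of a single value, Pgr passed by genotype for membership and among irradiated hosts, but not among sham hosts. Esr1 passed in none of them. With limma across 12786 genes, Pgr in irradiated hosts was higher by 1.78 ± 0.60 in heterozygous than in wild-type hosts (SE, unadjusted p = 0.00468), which did not pass after adjustment (adjusted p = 0.777). Esr1 differed there by 0.79 ± 0.43 (SE, adjusted p = 0.911). Whether the effect of irradiation differed between host genotypes was tested as an interaction, which was 0.89 ± 1.03 for Pgr and 0.72 ± 0.73 for Esr1 (SE, limma adjusted p = 1.00 for each). By Pgr alone, membership was 31.2 percentage points higher in heterozygous than in wild-type hosts (Fisher's exact test, p = 0.0115) and the level in irradiated hosts was higher by 1.78 (exact permutation test, p = 0.00322). Among sham hosts the Pgr level was higher by 0.88 in heterozygous than in wild-type hosts (exact permutation test, p = 0.395). By Esr1 alone, the membership and irradiated-host differences by genotype did not pass, with p-values of 0.0968 (Fisher's exact test) and 0.0824 (exact permutation test).

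Host and membership overlapped, so the 23 genes were also examined with host in the model. With the 4 host groups as covariates 6 genes passed, namely Fam25c, Gipc2, Itih2, Pwwp3b, Rbm20 and Tlcd4. Of these, Itih2, Pwwp3b and Tlcd4 had entered the test only through the 8 tumours. All 23 differences stayed positive. The genes were chosen for being higher in these same tumours, so their sign in this fit and the next is no separate test. Within heterozygous hosts alone, where 6 members were set against 10 others, all 23 were positive and 0 passed, while 528 genes had an unadjusted p under 0.05 (limma). The difference of Foxa1 was 3.10 there and that of Gipc2 was 2.55.

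The 17 glands gave a measure of these genes in samples the selection did not use. They were whole inguinal glands, without lymph node, of TGFb1 heterozygous and wild-type BALB/c littermates 10 weeks old, whose estrous cycles had been synchronised with injected estrogen and progesterone, taken 1 or 4 weeks after 10 cGy or 1 week after sham treatment. Within gland groups, the slope on the gland score of Esr1 and Pgr was positive for 17 of the 23 genes (73.9%), against 42.7% of 12943 genes tested. None of the 23 slopes passed the test across all genes, and 0 genes did in all (limma, smallest adjusted p = 0.45, 975 genes at an unadjusted p under 0.05). The slope per log2 unit of score was 1.03 ± 0.26 for Cxcl15 and 0.77 ± 0.20 for Rev3l (SE), the smallest unadjusted p-values of the 23 at 0.00151 and 0.00174. It was 0.81 ± 0.37 for Gipc2, 0.63 ± 0.28 for Tbx3 and 0.58 ± 0.32 for Foxa1, and -2.03 ± 0.80 for Cited1 and -0.52 ± 0.20 for Smco4 (SE). With the luminal list mean in the gland model 16 of the 23 were positive. Genes are not independent replicates, so these counts describe the list.

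Over the tumours, array medians were 5.89 to 5.96 in the 8 and 5.84 to 5.96 in the other 40. The difference between the 3′ and 5′ probe sets of beta-actin, a sign of RNA integrity, was 0.37 to 0.80 with a median of 0.52 in the 8, against 0.30 to 1.10 with a median of 0.44 in the other 40, and its part in the results was not tested. Correlations between tumour arrays were 0.912 to 0.990 and no arrays were identical. Their number limits the precision, and no depth applies to arrays.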

How the data were processed

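Messenger RNA was measured in 48 tumours and 17 glands, with 100 ng of tumour RNA labelled per array, per the labels. Tumour values were deposited as log2 and gland values as linear intensity. The submitters' processing notes name RMA for both, and its version and settings are not given in these sources. Gland intensity was converted to log2, and glands and tumours were not compared. Of 45101 probe sets, 34958 name 1 gene in the platform annotation, 932 several and 9211 none, and the first kind was used. Of their gene identifiers 99.4% matched a RefSeq table (GRCm38.p6), used for names, gene order and promoters.

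Each gene was read from its probe set with the highest mean, and genes under the 40th percentile of probe-set means (5.14 log2 in tumours, 4.15 in glands) were set aside. The tests across genes used limma 3.58.1 under R 4.3.3 (lmFit, eBayes with a trend), two-sided, adjusted by Benjamini-Hochberg over all genes tested, at a threshold of 0.05. The fit was tested on simulated data with independent genes and the same spread in both groups. That test therefore cannot show how the unequal spread of the real groups affects the p-values. Permutation and Fisher's exact tests used scipy 1.17.1, exact by host and with 100000 permutations for correlations. Groups came from the labels. Whether tumours with the same repeat number come from 1 donor or day is not stated, and same-numbered tumours of different groups did not deviate together (correlations of -0.43 to 0.63, median 0.05), so numbers were not used as pairs. Where repeats are not separate animals, p-values measure only the spread between samples.

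Members and gene lists were chosen with earlier results of these data known. Genes named were the 12 largest differences that passed in each direction, up to 4 passing genes of each list with the smallest p, a fixed set of hormone, keratin and marker genes, and the 10 highest and 5 lowest correlations with the score. The other genes that passed, the list genes and the neighbours on chromosome 9 were added after their values were seen.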

Additional observations from a re-analysis of the deposited data

Results flagged for a closer look

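In 4 of 55 groups of values examined, 1 tumour lay far from the others of its group, and chance gives this in about 1 in 20 groups. Among the 8 high-score tumours, tumour A stood apart at the top for Rev3l (gap over range 0.585) and for Lpin2 (0.593). Tumour H stood apart at the bottom for Krt8 (0.627) and for Epcam (0.543), which encodes an epithelial adhesion protein. The gap to the nearest tumour is given as a share of the range of the 8. Without tumour A the adjusted p was 0.34 for Rev3l and 0.306 for Lpin2 (limma), so neither passed.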

How the results depend on the processing

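Over up to 28 alternatives the 23 differences stayed positive in all 629 pairs of a gene and a setting, but 209 of those pairs no longer passed. The 23 genes were chosen for being higher in these tumours, which the alternatives largely reuse, so the kept sign is no separate support. The main comparison found 23 genes higher and 0 lower. Alternatives that moved the count of higher genes by over 1.5 times gave 6 with host groups as covariates, 13 with the fibroblast list mean as covariate, 40 (and 2 lower) without the filter on level, 3 with a filter at the 60th percentile, 10 after quantile normalization and 10 without the tumour whose labels disagree. The 10 highest tumours gave 79 higher and 35 lower genes, the score as a continuous measure 109 and 41, the 8 highest by Esr1 alone 94 and 48, and the 8 highest by Pgr alone 43 and 1. Leaving out each of the 8 tumours in turn gave 7 to 29 higher and 0 to 5 lower genes. Of the settings chosen after seeing the data, tumours A to E alone gave 39 higher and 1 lower, leaving out A and B gave 2, and heterozygous hosts alone gave 0. With a replicate block the counts were 23 and 0 (estimated correlation 0.021), and the block changed no other call. The cause of these shifts was not tested, except that fewer tumours or genes entered where some were left out.

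By Esr1 alone, heterozygous minus wild-type membership was 21.9 percentage points (Fisher's exact test, p = 0.0968), against 31.2 for the score, the difference among irradiated hosts was 0.79 (exact permutation test, p = 0.0824), irradiated minus sham in wild-type hosts was 0.30 (exact permutation test, p = 0.471) and membership of irradiated minus sham hosts was 4.85 points (Fisher's exact test, p = 1.0). With the 10 highest tumours the last was 1.21 points. The correlation of Esr1 with Pgr was 0.286 without A and H and 0.201 without A. In glands 18 genes passed when gland groups were left out of the model, against 0 with them, and 0 with a replicate block. These values hold no signal over background per probe, so the filter on level was the only guard against dim genes, and 13 of the 23 genes had an adjusted p over 0.045.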

Other observations

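Other gene groups gave values without a gene that passed. Neutrophil genes had a positive difference in 4 of 4 tested, with a median of 0.93, and the list mean was highest in tumour C at 12.14, above all other tumours, whose range was 5.90 to 11.01. B and plasma cell genes were positive in 4 of 4 (median 0.43), and tumour F was highest of the 8 at 9.18, against a median of 6.72 in the other 40. Notch genes were positive in 10 of 12 (median 0.19), IGF genes in 9 of 12 (median 0.07) and adipocyte genes in 7 of 8 (median 0.37). Luminal progenitor and alveolar genes were positive in 2 of 12 (median -0.42), and milk protein genes in 1 of 7 (median -0.27). Tumour B had the highest milk protein mean of the 8 at 12.64, and H the lowest at 7.12, against 6.00 to 13.38 in the other 40.

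The 8 highest tumours by Esr1 alone and the 8 highest by Pgr alone shared 4 tumours. In the 8 chosen by Esr1, Pgr ranged from 4.14 to 12.37 with a median of 6.42, against 3.66 to 8.35 with a median of 4.78 in the rest, and 6 of the 8 were above the rest's median. In the 8 chosen by Pgr, Esr1 ranged from 6.40 to 10.60 with a median of 8.15, against 4.65 to 10.40 with a median of 6.99 in the rest, and again 6 of 8 were above it. Of the 23 genes, 15 also passed with the 8 chosen by Esr1 and 17 with the 8 chosen by Pgr. Of the 8 chosen by Esr1, 6 were also among the 8 high-score tumours, and so were 6 of the 8 chosen by Pgr. These comparisons thus reuse most of the same tumours and give no separate support.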
